A study of Chlorocebus sabaeus with 32 samples.

Results

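The neurotrophins BDNF and NTF3 (neurotrophin-3), their receptor tyrosine kinases NTRK2 (TrkB) and NTRK3 (TrkC), and the shared neurotrophin receptor NGFR (p75NTR) were described in the young vervet hippocampus. These 5 genes were taken by name from a table of 33994 gene rows, and all 5 were present and passed the count filter. The study examined developmental change of the hippocampal transcriptome in the vervet monkey Chlorocebus sabaeus, with 32 RNA-seq libraries of total RNA from which ribosomal RNA had been removed. All 32 libraries carry the same age label, under 1 year, and the labels name no genotype, treatment, sex or batch.

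The library titles divide by their opening digits into 3 sets, lettered here as blocks, with 16 libraries in block B, 2 in block C and 14 in block A. Within block B, 9 titles go on with a high number and 7 with a low one (under 20000), while both block C titles have a high number and every block A title has a low one. The labels do not say what the opening digits or the number stand for, so these sets are title sets and not known ages or batches. Each title has its own identifier and each library was taken as 1 animal, which the labels do not state, so p-values measure the spread between these libraries. Replicate numbers only name a library.

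Neurotrophins are secreted as precursors that are cleaved by proprotein convertases. Mature BDNF acts mainly through NTRK2 and mature NTF3 mainly through NTRK3, and both Trk receptors signal through adaptor proteins to the MAP kinase, phosphoinositide 3-kinase and phospholipase C gamma pathways. NGFR binds all neurotrophins, and with sortilin-family proteins it binds their precursors. In the rodent hippocampus, BDNF RNA is made by excitatory neurons and is abundant in dentate granule cells, whose mossy fibres carry the protein to CA3, NTF3 RNA is largely found in the dentate gyrus, and astrocytes carry a truncated NTRK2 that lacks the kinase domain. A gene row sums the transcripts of a gene, so full-length and truncated receptors are not separated here.

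Libraries held 9347635 to 19673621 counts assigned to genes, with a median of 16201657. Levels are given as CPM, which are counts relative to the scaled library size and are not divided by transcript length, so they are compared between libraries and not between genes. Hippocampal markers were present in every library, with a sum of 2417 to 5244 CPM over 8 excitatory neuron markers and of 259 to 803 CPM over 8 markers of CA pyramidal neurons. Before the results, 2 libraries stand apart. The summed CPM of 7 dentate granule markers was 259 in B replicate 2 and 231 in A replicate 1, against 380 in the next lowest library and 837 in the highest. PROX1, the transcription factor that marks granule cells, had 19.8 CPM in B replicate 2, 37.0 CPM in A replicate 1 and 46.7 to 187 CPM in the other libraries. Markers of CA pyramidal and excitatory neurons were low there too. This was read from a score, which is the mean z-scored log2 level of a list, scaled to an SD of 1. The CA pyramidal score was lowest in these 2 libraries (-2.09 in B replicate 2 and -2.51 in A replicate 1). The excitatory neuron score was -2.53 in B replicate 2, the lowest of all libraries, and -1.36 in A replicate 1. It was lower than in A replicate 1 also in B replicate 15 (-2.01) and C replicate 2 (-1.44). Not all neuron lists were low, since the interneuron score was 0.18 in B replicate 2 and -0.67 in A replicate 1. A summed level of 8 striatal and thalamic markers reached 975 CPM in B replicate 2 and 349 CPM in B replicate 8, and the next highest library had 150.4 CPM. B replicate 8 also had the highest choroid plexus score (4.01), with 17.2 CPM of BDNF and 0.985 CPM of NTF3. In depth, A replicate 1 had the fewest gene counts of all (9347635) and B replicate 2 had 11403860, with only C replicate 2 (11086518) between them. A replicate 1 also had the highest share of reads outside gene features (67.1%). Leaving out B replicate 2 and A replicate 1 thus changes depth as well as tissue markers. Results below that these 2 libraries changed are given with and without both, and B replicate 8 is kept in each of these. In bulk RNA, fewer cells of a type and less RNA per cell cannot be told apart.

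BDNF was detected in every library. It had 12.1 CPM in the lowest, 27.2 CPM in the median and 44.5 CPM in the highest of the 16 libraries of block B, and 21.8 and 39.3 CPM in both libraries of block C. The 14 libraries of block A ran from 12.6 through a median of 39.1 to 46.2 CPM. The ranges of blocks B and A overlapped over most of their width, although 14 of the 16 libraries of block B lay below the median of block A. The mean was 28.4 ± 9.22 CPM in block B (SD, n = 16) and 36.4 ± 9.17 CPM in block A (SD, n = 14).

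NTF3 was the ligand with the widest spread. It ran from 0.164 through a median of 2.63 to 6.79 CPM in block B, was 2.25 and 5.86 CPM in block C, and ran from 0.470 through 3.55 to 5.64 CPM in block A. The lowest value, in B replicate 2, rests on 2 counts and the next, in A replicate 1, on 5 counts. A count of 0 would allow up to 3 counts, or 0.152 to 0.321 CPM depending on the library, so the lowest value lies within that floor. Those same libraries hold the lowest dentate granule marker sums. In the other 30 libraries NTF3 ran from 0.827 to 6.79 CPM.

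NTRK2, the receptor for BDNF, varied little. It ran from 873 through a median of 1104 to 1510 CPM in block B, was 912 and 996 CPM in block C, and ran from 841 through 1003 to 1433 CPM in block A. Its highest value was in B replicate 2, the library with the lowest BDNF and NTF3. Without B replicate 2 and A replicate 1 the highest value was 1265 CPM. The title sets overlapped, with 13 of the 16 libraries of block B above the median of block A.

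NTRK3, the receptor for NTF3, ran from 245 through a median of 322 to 392 CPM in block B, was 268 and 305 CPM in block C, and ran from 242 through 349 to 371 CPM in block A. In block B, 13 libraries lay below the median of block A and the other 3 lay above its highest library. NGFR, which also binds the precursors, was detected in all libraries at low counts. It ran from 1.23 through a median of 3.25 to 4.31 CPM in block B, was 2.63 and 2.68 CPM in block C, and ran from 0.941 through 2.70 to 4.21 CPM in block A. NTRK3 and NGFR were both lowest in A replicate 1.

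**Figure D1:**
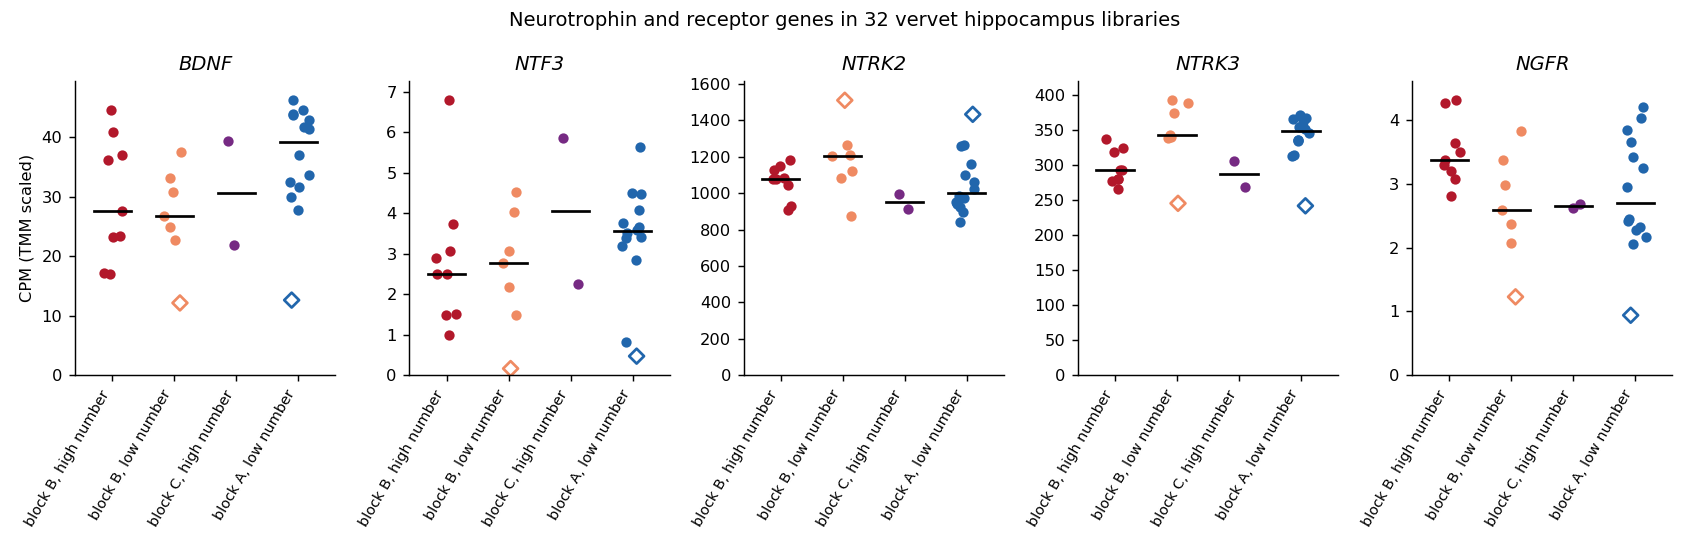
Level of each gene in CPM (vertical axes, starting at 0) in each of the 32 libraries, by block and number set, with 1 point per library, a black bar at each median and open diamonds for A replicate 1 and B replicate 2. The blocks overlap for all 5 genes, and the diamonds hold the lowest BDNF, NTF3, NTRK3 and NGFR values and the highest NTRK2 value.

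Both ligands varied between libraries more than most genes, and both Trk receptors did not. The biological coefficient of variation, which is the spread left after counting error, was 0.522 for NTF3, a value above that of 98.8% of the 19959 genes past the filter. It was 0.310 for BDNF, above that of 90.4% of genes, and 0.238 for NGFR, above that of 79.3%. NTRK2 had 0.153 and NTRK3 0.129, both below the median of 0.157 over all genes. These ranks are among genes of any level, and NTF3 and NGFR had medians of only 3.13 and 3.03 CPM over all libraries. Their rank among genes of like level was not tested. Leaving out both libraries that stand apart gave 0.401 for NTF3, 0.252 for BDNF, 0.178 for NGFR, 0.126 for NTRK2 and 0.115 for NTRK3, beside a median of 0.145, and those of NTF3 and BDNF were above 97.3% and 86.2% of genes.

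The ligands followed the dentate granule markers across libraries. Expression of each gene was fitted on a score of 5 granule genes (PROX1, CALB1, C1QL2, PDYN and SEMA5A), and slopes are log2 changes per SD of that score ± standard error. This fit was added after the data had been seen, and none of the 5 neurotrophin genes is in the score. BDNF rose by 0.46 ± 0.04 (adjusted p = 1.04e-09) and NTF3 by 0.82 ± 0.10 (adjusted p = 2.16e-07; edgeR quasi-likelihood test, Benjamini-Hochberg over 23502 genes). Without B replicate 2 and A replicate 1, which are also the farthest from the median score, the slopes were 0.51 ± 0.06 for BDNF (edgeR adjusted p = 7.09e-07) and 0.74 ± 0.12 for NTF3 (edgeR adjusted p = 7.03e-05).

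All 3 receptors passed the same test over the 32 libraries, with smaller slopes. NTRK2 fell by 0.14 ± 0.03 (edgeR adjusted p = 0.000247), NTRK3 rose by 0.12 ± 0.03 (adjusted p = 0.00157) and NGFR rose by 0.22 ± 0.08 (adjusted p = 0.0264). None of these calls was kept without the 2 libraries that stand apart. The slopes were then -0.11 ± 0.05 for NTRK2 (edgeR adjusted p = 0.0944), 0.10 ± 0.04 for NTRK3 (adjusted p = 0.0994) and 0.02 ± 0.09 for NGFR (adjusted p = 0.903). The count of 5 of 5 genes called stands against 25.5% of all genes tested, and the 2 of 5 called without those libraries against 19.7%.

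Other cell groups moved with the granule score, on which 25.5% of all genes were called. On it, 5 of 8 excitatory neuron markers rose and 2 fell, with NEUROD2 (0.40 ± 0.05) and the vesicular glutamate transporter SLC17A7 (0.39 ± 0.06) among those that rose, and 7 of 8 striatal and thalamic markers fell, among them the opioid peptide precursor PENK (-0.97 ± 0.15). Among glial lists, 5 of 12 astrocyte markers and 5 of 8 oligodendrocyte precursor markers fell and none rose, while none of 14 mature myelin and 8 microglia markers was called, and no defining marker of these lists was at 0 in all libraries. The part of these cell groups in the slopes of BDNF and NTF3 was not tested.

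**Figure D2:**
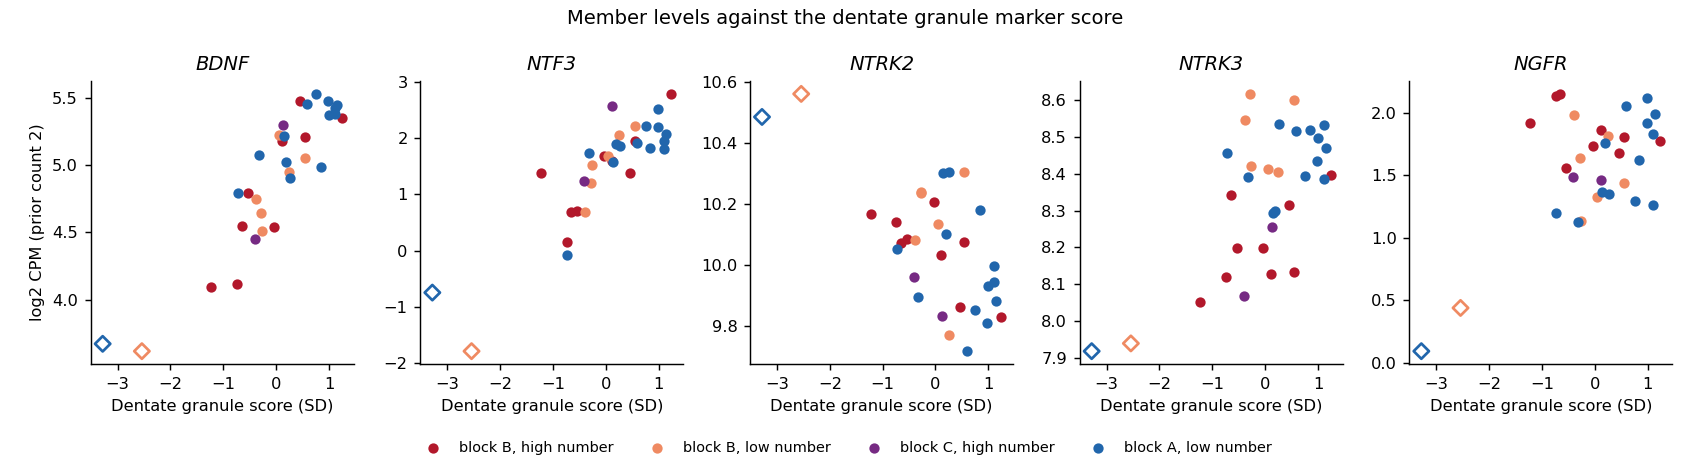
Level of each gene in log2 CPM with a prior count of 2 (vertical axes, which do not start at 0) against the dentate granule score (horizontal axes, SD units), with 1 point per library coloured by block and number set and open diamonds for A replicate 1 and B replicate 2. BDNF and NTF3 climb with the score also among the other 30 libraries, while the flat NGFR pattern there matches its slope of 0.02.

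Library depth moved with the same genes. BDNF correlated with the log2 number of gene counts (r = 0.79, rho = 0.75, permutation p adjusted over 10 relations = 0.0001 for both, n = 32), within block B (r = 0.73) and block A (r = 0.86), and without the libraries that stand apart (r = 0.65). The correlation with depth was r = 0.60 for NTF3, -0.57 for NTRK2, 0.48 for NTRK3 and 0.64 for NGFR, with permutation p adjusted over the 10 relations from 0.000967 to 0.00629. Spearman's rho was 0.50 for NTF3 and -0.52 for NTRK2 (permutation p adjusted over 10 = 0.00732 and 0.00657), and 0.23 for NTRK3 and 0.35 for NGFR, which did not pass (0.23 and 0.0689). When both libraries that stand apart were left out, r was 0.29 for NTF3, -0.32 for NTRK2, 0.17 for NTRK3 and 0.29 for NGFR. Leaving out the 2 libraries farthest in depth gave r of 0.73 for BDNF, 0.53 for NTF3, -0.58 for NTRK2, 0.23 for NTRK3 and 0.50 for NGFR. With depth in the fit, the granule slopes of BDNF (0.35 ± 0.05, edgeR adjusted p = 1.89e-05) and NTF3 (0.81 ± 0.13, adjusted p = 7.18e-05) passed the test, against 6.09% of all genes. With depth in the fit, NTRK2 had a slope of -0.11 (edgeR adjusted p = 0.119), NTRK3 0.12 (adjusted p = 0.0519) and NGFR 0.10 (adjusted p = 0.630), and none passed.

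The share of reads outside gene features also moved with them. It averaged 57.0% ± 3.61 (SD, n = 32) and was 59.7% in B replicate 2 and 67.1% in A replicate 1. Its correlation with expression was r = -0.60 for BDNF, -0.42 for NTF3, 0.60 for NTRK2, -0.020 for NTRK3 and -0.51 for NGFR. All but that of NTRK3 (0.914) passed, with permutation p adjusted over the 10 relations from 0.000967 to 0.0191. Spearman's rho was -0.57 for BDNF, -0.40 for NTF3, 0.59 for NTRK2, 0.13 for NTRK3 and -0.29 for NGFR, of which the last did not pass either (permutation p adjusted over 10 = 0.13). Leaving out the 2 libraries farthest in this share gave r of -0.45, -0.29, 0.48, 0.23 and -0.24 in the same order. Leaving out both libraries that stand apart gave -0.46, -0.21, 0.49, 0.36 and -0.25. For NTRK3 the sign differed between blocks, with r = 0.33 in block B and -0.57 in block A. With this share as a covariate, NGFR lost its call on the granule score (0.17, edgeR adjusted p = 0.138), and the slopes of BDNF (0.41), NTF3 (0.79), NTRK2 (-0.11) and NTRK3 (0.15) were called. Block as a factor left all 5 calls in place, with slopes of 0.45 for BDNF, 0.87 for NTF3, -0.14 for NTRK2, 0.11 for NTRK3 and 0.28 for NGFR.

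The other scores addressed maturation, activity and glia. On the score of immature neuron genes such as DCX and SOX11, 32.6% of all genes were called and none of the 5 neurotrophin genes was. The slopes were -0.09 ± 0.08 for BDNF, -0.03 ± 0.14 for NTF3, -0.05 ± 0.04 for NTRK2, -0.03 ± 0.03 for NTRK3 and 0.11 ± 0.07 for NGFR, with edgeR adjusted p from 0.238 to 0.882. The difference of this slope between blocks B and A gave no call in edgeR among 23441 genes (0%), with 1673 genes at an unadjusted p under 0.05 and none of the 5 genes among them.

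None of the 5 genes was called on the mature myelin score, where 4.18% of genes were, and the nearest was NGFR (-0.13 ± 0.07, edgeR adjusted p = 0.321). None was called on the score of activity-induced genes such as FOS, ARC and NPAS4, where 7.71% of genes were. BDNF is itself induced by neuronal activity, and its slope there was 0.05 ± 0.09 (edgeR adjusted p = 0.812). On the mural and fibroblast score, where 10.3% of genes were called, none of the 5 was, and NTRK3 was nearest (-0.07 ± 0.03, edgeR adjusted p = 0.119). Its slope without the libraries that stand apart was also -0.07 ± 0.03 and was called (edgeR adjusted p = 0.0485).

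On the astrocyte score, NTRK2 was the only one of the 5 genes called, against 5.2% of genes. It rose by 0.11 ± 0.03 (edgeR adjusted p = 0.0380), and NTRK3 had a slope of -0.09 ± 0.03 (adjusted p = 0.0636). The slopes were -0.17 ± 0.08 for BDNF, -0.27 ± 0.13 for NTF3 and -0.15 ± 0.07 for NGFR (edgeR adjusted p from 0.203 to 0.218). All 5 genes had an unadjusted edgeR p under 0.05, against 21.1% of all genes. Without the libraries that stand apart the NTRK2 slope was 0.08 ± 0.03 and not called (edgeR adjusted p = 0.187), and with depth in the fit it was also 0.08 ± 0.03 (adjusted p = 0.125). Without the 2 libraries farthest in the astrocyte score it was 0.10 ± 0.04 (edgeR adjusted p = 0.316), and with no count filter or with genes not scaled in the score it was 0.11 and 0.10 (adjusted p = 0.0710 and 0.0725). NTRK3 was called with DESeq2 (-0.09, adjusted p = 0.0318), with block as a factor (-0.10, edgeR adjusted p = 0.0202) and with the share of reads outside features in the fit (-0.09, edgeR adjusted p = 0.0481).

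**Figure D3:**
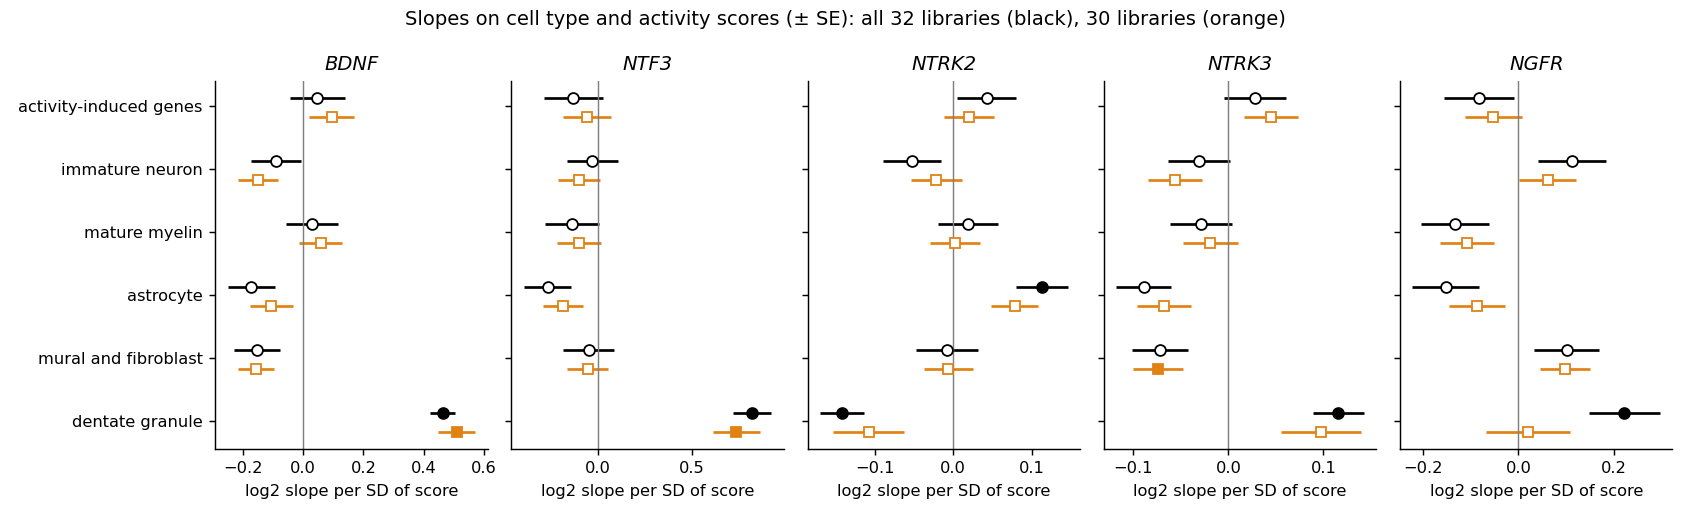
Slope of each gene on each marker score (log2 per SD of the score, horizontal axis; bars are standard errors) over all 32 libraries (black) and over the 30 libraries without A replicate 1 and B replicate 2 (orange), with filled points for adjusted p under 0.05. The filled orange points are BDNF (0.51) and NTF3 (0.74) on the dentate granule score and NTRK3 (-0.07) on the mural and fibroblast score.

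Comparing block B with block A called 12.5% of 23977 genes and none of the 5. BDNF differed most, by -0.35 ± 0.16 (log2, p = 0.0325, edgeR adjusted p = 0.139), and at an unadjusted p under 0.05 it was the only one of the 5, against 27.3% of all genes. The difference was -0.31 ± 0.27 for NTF3, 0.08 ± 0.08 for NTRK2, -0.09 ± 0.06 for NTRK3 and 0.13 ± 0.15 for NGFR, with edgeR adjusted p from 0.375 to 0.637. The BDNF call turned on single libraries and on the model. It was passed without A replicate 1 (-0.42, edgeR adjusted p = 0.0376), without both libraries that stand apart (-0.37, adjusted p = 0.0419) and with the share of reads outside features as a covariate (-0.40, adjusted p = 0.0204), whereas with depth as a covariate the difference was -0.19 (adjusted p = 0.223). In the same comparison 11 of 12 immature neuron markers were higher in block B, 4 of 8 excitatory neuron markers were lower, and 1 of 7 dentate granule markers was lower.

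Title numbers were then separated from the block. Among low numbers only, block B against block A called 5.54% of genes and none of the 5, with differences of -0.43 ± 0.21 for BDNF, -0.38 ± 0.36 for NTF3, 0.17 ± 0.09 for NTRK2, 0.03 ± 0.07 for NTRK3 and -0.11 ± 0.19 for NGFR. Within block B, NTRK3 averaged 297 ± 24.4 CPM in libraries with a high number (SD, n = 9) and 346 ± 49.9 CPM in those with a low number (SD, n = 7). All 9 high-number libraries lay below the median of the low-number libraries, although the ranges of 265 to 337 and 245 to 392 CPM overlapped. No gene was called there by edgeR (0%), with 2930 genes (12.2%) at an unadjusted p under 0.05 and 108 called by DESeq2, so the NTRK3 difference of -0.23 ± 0.08 (edgeR adjusted p = 0.254) was not called. Without the libraries that stand apart, of which B replicate 2 belongs to the low-number set, the NTRK3 difference was -0.29 ± 0.06 and was called (edgeR adjusted p = 0.0328), as were 0.428% of all genes. Without B replicate 2 alone it was -0.29 ± 0.07 and not called (edgeR adjusted p = 0.0804), so the call needs A replicate 1, which is in neither number set of block B, to be left out too.

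NGFR lay the other way in this comparison. It averaged 3.50 ± 0.509 CPM in high-number libraries (SD, n = 9) and 2.64 ± 0.863 CPM in low-number libraries (SD, n = 7), with all 9 high-number libraries above the median of the low-number libraries. Its difference of 0.39 ± 0.20 was not called (edgeR adjusted p = 0.435). NTRK2 differed by -0.16 ± 0.10, with all 9 high-number libraries below the median of the low-number libraries, BDNF by 0.13 ± 0.22 and NTF3 by 0.11 ± 0.39, and none of these was called. B replicate 2 is in the low-number set. Without it the difference was 0.27 for NGFR, -0.082 for NTRK2 and 0.013 for BDNF, with none called.

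Ratios within a library do not depend on the scaling between libraries. The log2 ratio of BDNF to NTF3 averaged 3.51 ± 0.73 in block B (SD, n = 16) and 3.50 ± 0.54 in block A (SD, n = 14; permutation test, p = 0.98). These ratios use a prior count of 2, and the value of B replicate 2, where NTF3 lies within the floor, depends on that prior. With both libraries that stand apart left out the difference was -0.047 (permutation p adjusted over both ratios = 0.817). The log2 ratio of NTRK2 to NTRK3 averaged 1.81 ± 0.31 in block B and 1.63 ± 0.34 in block A (permutation p adjusted over both ratios = 0.274), with a difference of 0.18. Without the libraries that stand apart this difference was 0.20 and passed (permutation p adjusted over both ratios = 0.0487).

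The 5 genes were compared with each other over the 32 libraries, as 10 pairs of log2 CPM. BDNF and NTF3 were positively correlated (r = 0.81, rho = 0.73; permutation p adjusted over the 10 pairs = 5e-05 and 0.0001), within block B (r = 0.77) and block A (r = 0.87). BDNF and NTRK2 were negatively correlated (r = -0.72, rho = -0.69; permutation p adjusted over the 10 pairs = 5e-05 and 0.0001), within block B (r = -0.69) and block A (r = -0.79). These were the only pairs that passed without the libraries that stand apart, which for each of the 10 pairs were also the 2 farthest from the median. The values were then r = 0.65 for BDNF and NTF3 (permutation p adjusted over 10 = 0.0009) and -0.55 for BDNF and NTRK2 (adjusted p = 0.0083, permutation test). Within block B without B replicate 2, r was 0.60 for BDNF and NTF3 and -0.51 for BDNF and NTRK2. Within block A without A replicate 1, these were 0.66 and -0.69.

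The other 7 pairs that passed over all 32 libraries did not pass without both. Between each ligand and its main receptor, NTF3 and NTRK3 had r = 0.54 (permutation p adjusted over 10 = 0.0026) over all libraries and 0.22 without both. Their rho over all libraries was 0.40 (permutation p adjusted over 10 = 0.0496). NTRK3 and BDNF had r = 0.62 (permutation p adjusted over 10 = 0.00065) and 0.40 without both (adjusted p = 0.103). The rho of this pair over all libraries was 0.38 and did not pass (permutation p adjusted over 10 = 0.0506). NTF3 and NTRK2 had r = -0.63 (permutation p adjusted over 10 = 0.0005) and -0.36 without both (adjusted p = 0.131).

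NGFR was correlated with BDNF (r = 0.45), NTF3 (r = 0.52), NTRK2 (r = -0.58) and NTRK3 (r = 0.36), with permutation p adjusted over 10 from 0.00084 to 0.0458. Spearman's rho was 0.19, 0.20, -0.40 and 0.14 in the same order, of which only that with NTRK2 passed (permutation p adjusted over 10 = 0.0496, against 0.369, 0.369 and 0.459 for the others). Without both libraries r was -0.069, -0.030, -0.27 and -0.12. Within block A, NGFR and BDNF had r = 0.83, against 0.53 without A replicate 1. Within block B the same pair had r = 0.30, against -0.30 without B replicate 2. The pair of Trk receptors did not pass (r = -0.34, permutation p adjusted over 10 = 0.0534), but did with block means subtracted (r = -0.39, adjusted p = 0.0283). With DESeq2 size factors the pair of NTRK3 and NGFR did not pass (r = 0.33, permutation p adjusted over 10 = 0.0672).

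**Figure D4:**
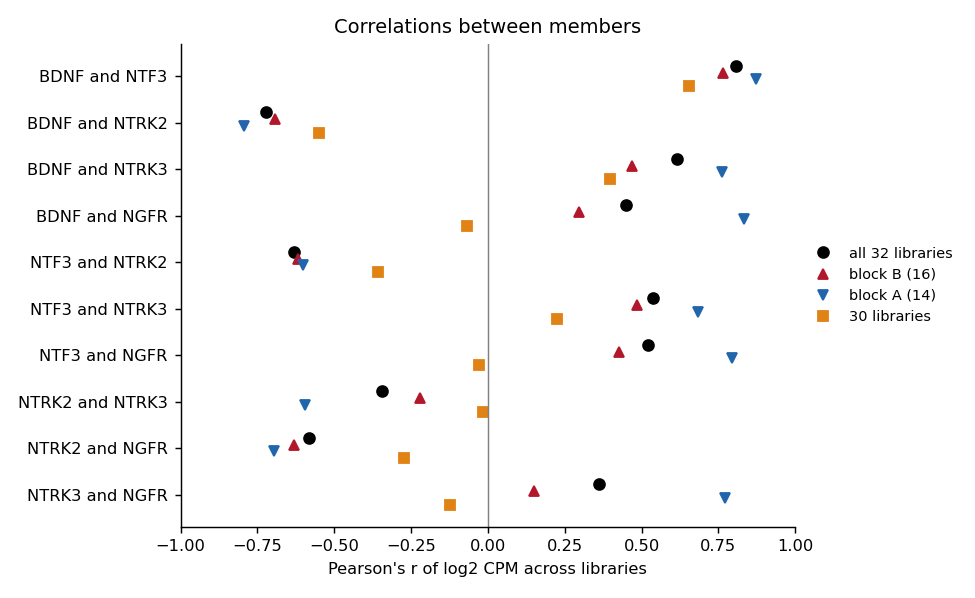
Pearson's r of log2 CPM for the 10 pairs of genes (rows) over all 32 libraries, within each block and over the 30 libraries without A replicate 1 and B replicate 2. The BDNF and NTF3 pair (0.81 over all, 0.65 over 30) and the BDNF and NTRK2 pair (-0.72 and -0.55) keep the largest values without those libraries.

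Among 12916 other genes, those whose level was most like a member's were ranked by r of log2 CPM over the 32 libraries. These r values are descriptions, and all genes share library depth and tissue makeup. BDNF was most like CREG2 (r = 0.94), followed by CADPS, CNRIP1, KIAA1191 and TPI1 (each 0.92). CADPS primes dense-core vesicles for release, and TPI1 is a glycolytic enzyme. These 5 genes had r from 0.87 to 0.95 within block B, from 0.93 to 0.97 within block A, and from 0.89 to 0.93 without the libraries that stand apart. The lowest r were those of ITGA6, an integrin subunit (-0.90), the transcription factor KLF6 (-0.87) and MID2 (-0.85).

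NTF3 was most like the transcription factors TWIST1 (r = 0.93) and PROX1 (0.91), then EPHA7, an ephrin receptor (0.90), STAT2 (0.90) and DTNB (0.89). PROX1 is one of the granule score genes, and its r with NTF3 was 0.90 within block B, 0.94 within block A and 0.79 without the libraries that stand apart. The lowest r were those of LRRTM3, a synaptic adhesion protein (-0.88), FAT3, an atypical cadherin (-0.87), and TMEM132D (-0.84).

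NTRK2 was most like PITPNM3 (r = 0.82), PITPNM2 (0.80), CIT (0.80), NWD1 (0.79) and MID2 (0.79). Its largest values were negative, with the neuronal RNA-binding protein ELAVL2 (-0.87), the pyramidal neuron transcription factor NEUROD6 (-0.86) and CRADD (-0.83). Without the libraries that stand apart these were -0.82, -0.78 and -0.74.

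NTRK3 was most like the protocadherin PCDH1 (r = 0.92), EIF4E3 (0.91), SEZ6L (0.89), CELSR2, a cadherin of planar cell polarity (0.88), and GRIN2B, an NMDA receptor subunit (0.88). These stayed between 0.83 and 0.90 without the libraries that stand apart. The lowest were NEIL1, a DNA repair glycosylase, AP1S2 and SPARCL1 (each -0.78). For NGFR the nearest genes were STRADA (0.75), C17H6orf89, SEC24C, PPM1E and SLC24A3 (each 0.74), and without the libraries that stand apart these had r of 0.41, 0.45, 0.35, 0.17 and 0.11, so this ranking rests on those libraries.

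**Figure D5:**
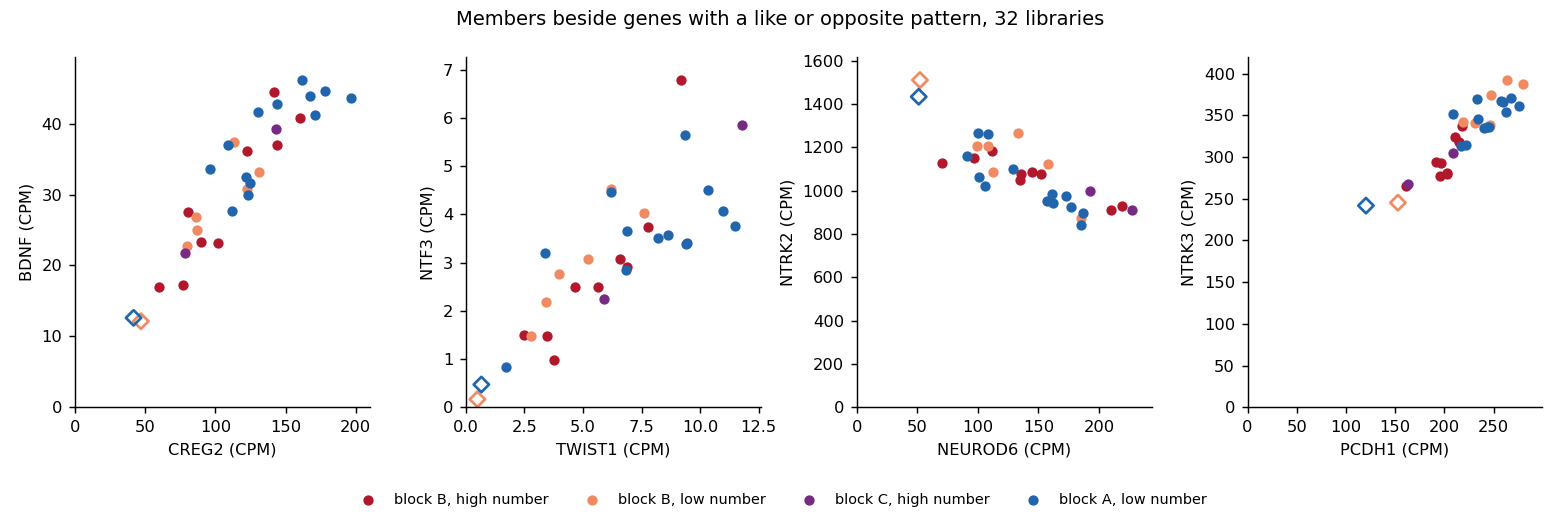
Level in CPM of BDNF, NTF3, NTRK2 and NTRK3 (vertical axes) against that of CREG2, TWIST1, NEUROD6 and PCDH1 (horizontal axes), with 1 point per library coloured by title set and open diamonds for A replicate 1 and B replicate 2. NTRK2 falls as NEUROD6 climbs (r = -0.86), and the other panels climb together (r = 0.94 for CREG2, 0.93 for TWIST1 and 0.92 for PCDH1). These r are of log2 CPM over all libraries and not of the CPM drawn. Without A replicate 1 and B replicate 2 they were -0.78, 0.90, 0.84 and 0.90 in the same order.

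Of the rest of the pathway, 4 of the 5 sorting receptors of the sortilin family were called on the granule score. SORT1, which binds proneurotrophins with NGFR, rose by 0.33 ± 0.05 (edgeR adjusted p = 3.76e-06) and SORL1 by 0.19 ± 0.04, while SORCS1 fell by 0.36 ± 0.05 (adjusted p = 5.34e-07), so that with SORCS2 2 of 5 rose and 2 fell, as they did without the libraries that stand apart. Between blocks, SORCS1 was higher in block B by 0.49 ± 0.14 (edgeR adjusted p = 0.0190) and SORL1 was lower by a log2 difference of -0.32 ± 0.09 (adjusted p = 0.0136). Of 12 genes that process proneurotrophins, only the convertase FURIN rose on the granule score (0.10 ± 0.02), and none differed between blocks.

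Of 29 Trk adaptors and effectors, 3 rose and 6 fell on the granule score, with a list median of -0.0034 beside -0.013 over all genes. Among them PLCG2, a phospholipase C, rose (0.32 ± 0.06) and the Ras exchange factor SOS2 fell (-0.12 ± 0.02). Between blocks, 4 of the 29 were higher in block B and 2 were lower. The adaptors SHC4 (0.43 ± 0.11) and SH2B2 (0.49 ± 0.13) and the NTRK substrate PLCG1 (0.18 ± 0.05) were among those higher.

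Of 10 genes listed around NGFR (partners, adaptors and the related receptor TNFRSF19), 6 rose on the granule score and none fell. The list median was 0.14 beside the same -0.013. MAGED1, an adaptor that binds the NGFR intracellular domain, rose by 0.16 ± 0.03, NDN by 0.19 ± 0.04 and BEX1 by 0.18 ± 0.04. Without the libraries that stand apart 4 of 10 rose, and with depth in the fit none did. Between blocks only TNFRSF19 was called (0.24 ± 0.07, higher in block B). Of 12 transcriptional regulators of BDNF, MEF2C (-0.29 ± 0.05) and the repressor REST (-0.19 ± 0.03) fell on the granule score, and with depth in the fit 2 of 12 were called higher and none lower. Between blocks MEF2D (-0.34 ± 0.10) and the CREB coactivator CRTC1 (-0.36 ± 0.10) were lower in block B. With the immature neuron score in the fit, no gene of these pathway lists was called between blocks. Hardly any gene of the whole table was called in that fit, so this says nothing particular about the lists. In the fits with no covariate, the shares called can be read against 25.5% of all genes on the granule score and 12.5% between blocks.

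In the reference annotation the BDNF gene overlaps the long noncoding RNA LOC140712043 and the NTF3 gene overlaps LOC140712725. Whether the counting used strand is not given in the sources used here, and only whole gene spans were compared. It is therefore not known whether reads of each ligand and its overlapping gene were kept apart. No other gene overlaps NTRK2, NTRK3 or NGFR in that annotation.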

How the data were processed

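Counts of 32 RNA-seq libraries of vervet hippocampus were analysed. The table deposited by the authors holds raw whole-number counts per gene. STAR and HTSeq are named in the submitters' processing notes. The genome build, the annotation, tool versions and strand use were not given in the sources used here. Its 5 tally lines were kept apart from the genes (reads in no feature made up 57.0% ± 3.61, SD, n = 32). The members and gene lists were chosen with earlier results of these data known. Gene numbers were matched to symbols in a RefSeq gene table of the assembly mChlSab1.0.hap1, which named 825 of 17250 numbered rows.

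Counts were scaled by TMM and tested by edgeR 4.0.16 under R 4.3.3 with the quasi-likelihood test, after filterByExpr (minimum count 10, minimum total 15, proportion 0.7), with Benjamini-Hochberg adjustment over all genes tested and a threshold of 0.05. Standard errors are the log2 value over the square root of F. A score is the mean z-scored log2 CPM (prior count 2) of a list, scaled to an SD of 1, and its genes are left out of that fit's counts. Genes were named by rule: up to 3 called genes with the smallest p per list, and for likeness the 5 highest and 3 lowest r among genes with a mean of at least 1 CPM. Correlations and ratios used two-sided permutation tests of 100000 resamples (scipy 1.17.1), whose smallest p is 1e-05. Some genes that the rule names are not reported here. Scripts were tested on simulated data. Alternatives were DESeq2 1.42.0, its size factors, no filter, covariates and left-out libraries; the dentate granule fit, depth as a covariate and leaving out both libraries that stand apart were alternatives chosen after seeing the data. Floors cover counting error only, while SDs and standard errors include the spread between libraries.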

Additional observations from a re-analysis of the deposited data

Results flagged for a closer look

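Levels of the 5 genes were checked for a library far from the rest in the high-number (n = 9) and low-number (n = 7) sets of block B, as 10 groups, of which chance would flag about 1 in 20. NTF3 in B replicate 5, of the high-number set, had 6.79 CPM, and its gap to the nearest of the other libraries was 0.525 of the group's range. NTRK3 in B replicate 2, of the low-number set, had 245 CPM, with a gap of 0.635 of the range below the other libraries of that set. B replicate 5 also had the lowest log2 ratio of BDNF to NTF3 (2.57) and the highest PROX1 level (187 CPM), and B replicate 2 the lowest NTF3 and PROX1 levels.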

How the results depend on the processing

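Depth limits NTF3 and NGFR most, since both were counted in few reads. No paired analysis was possible because replicate numbers only follow the order of deposition. Over 765 values of single genes under the alternatives, 721 kept direction and side of the threshold, 15 lost and 8 gained a call and 21 changed sign. The slopes of BDNF and NTF3 on the granule score kept their calls under every alternative run.

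Counts of genes called moved by over 1.5 times as follows, and the cause was not tested. Between blocks B and A the 2987 genes became 1 with the immature neuron score in the fit and 4586 with depth (library total) as a covariate, while without single libraries it stayed within 1.5 times (2237 to 3870). Among low numbers 1328 became 2106 without B replicate 2 and A replicate 1. Between number sets 0 became 108 with DESeq2, 11 with the immature score, 102 without both those libraries, and 0 to 19 without single libraries of block B. On the activity score 1769 became 3027 with the share of reads outside features, 589 with block as a factor, 422 without the 2 farthest libraries and 2984 without both libraries that stand apart. On the immature score 7345 became 2656 with block as a factor. On the myelin score 941 became 1669 with the share outside features, 526 with block, 1782 with genes not scaled and 347 without the 2 farthest. On the astrocyte score 1192 became 1795 with the share outside features, 40 without the 2 farthest and 398 without both that stand apart. On the mural score 2352 became 3620 with the share outside features, 70 with block and 3737 without the 2 farthest. On the granule score 5987 became 1431 with depth. Of the 9 pairs that passed, 2 passed without both libraries that stand apart and 4 with the line on depth subtracted.

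Signs changed only for values that were not called, except among the pairs. In the block comparison NGFR became -0.21 with the immature score. Among low numbers NTF3 became 0.027 and NGFR 0.11 with depth. Between number sets BDNF became -0.29 and NTF3 -0.30 with the share outside features, BDNF -0.10 and NTF3 -0.16 with depth, and NTF3 -0.086 without both that stand apart; without single libraries NTF3 ran from -0.16 to 0.29. On the activity score BDNF became -0.024 with block, -0.070 without the 2 farthest and -0.035 with depth. On the immature score BDNF became 0.12, NTF3 0.028 and NTRK3 0.062 with block, and NTF3 became 0.0096 with genes not scaled and ran from -0.15 to 0.0064 without single libraries. On the myelin score BDNF became -0.053 without the 2 farthest, and on the mural score NTRK2 0.0096 without the 2 farthest and NTF3 0.017 with depth. Without both libraries that stand apart, r of NGFR became -0.069 with BDNF, -0.030 with NTF3 and -0.12 with NTRK3, and with the line on depth subtracted that of BDNF and NGFR was -0.12. The ratio of BDNF to NTF3 differed by -0.047 and that of NTRK2 to NTRK3 by 0.20 (permutation p adjusted over both = 0.0487) without both that stand apart.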

Other observations

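NTF4, the other ligand of NTRK2, was near the floor of detection. It was counted 0 to 4 times per library, with 0 counts in 14 libraries, and a count of 0 allows 0.152 to 0.321 CPM, depending on the library. The summed level of 5 basal forebrain cholinergic markers was highest in B replicate 2, at 12.05 CPM, and B replicate 8, at 8.07 CPM, against 4.85 CPM in the next highest library. Those libraries also had the highest PENK, an opioid peptide precursor abundant in the striatum, at 446 CPM in B replicate 2 and 160.0 CPM in B replicate 8.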
